A study of Mus musculus with 16 samples.

Results

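Mesothelial genes of the epididymal fat depot were followed in db/db mice that overexpressed LRG1 or carried an eGFP control virus. The set was 10 genes out of the 55573 in the count table, chosen by name as markers of the mesothelium and matched to the Ensembl identifiers of the table. These were Msln, Muc16, Upk3b, Upk1b, Krt8, Krt18, Krt19, Wt1, Bnc1 and Lrrn4. All 10 passed the filter on low counts, so every gene of the set was tested. None passed the threshold of an adjusted p below 0.01 in edgeR in any comparison fitted on all 16 libraries. At week 7 all 10 had a higher mean in LRG1 mice and none was called, where 7.37% of all genes were called higher and 10.7% lower. With only the 8 libraries of week 7 fitted, edgeR called 2 of the 10 higher, where 13.1% of all genes were. At week 10 the eGFP controls fell into a low and a high pair of libraries, and the week 10 comparison turned on which pair was kept.

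The mesothelium is the single layer of flat cells that covers the serous surfaces of the body cavity, the surface of visceral fat included. Its cells keep epithelial features such as keratins and a mucin-rich coat, yet they derive from mesoderm and express transcription factors of that origin. Epididymal white adipose tissue (eWAT) lies in the peritoneal cavity, so a whole piece of the depot holds its mesothelial cover beside adipocytes, vessels and immune cells.

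RNA was sequenced from whole eWAT of male C57BLKS/J-db/db mice, so every group carried the same leptin receptor mutation. The 4 groups were AAV8-LRG1-FL and AAV8-eGFP at an age of week 7, and AAV8-LRG1-FL and AAV8-eGFP at week 10, with 4 libraries each and 16 in all. The LRG1-FL vector encodes LRG1, a secreted leucine-rich glycoprotein, with a 3xFLAG tag at its C terminus, and both vectors carry the CB7 promoter, which is not restricted to one cell type. Mice were assigned to a virus by cage, so an effect of the cage and an effect of the virus cannot be told apart, and the labels do not give the cage of a library. No lean mice were sequenced, so the comparisons say nothing of the mesothelium outside this obese model. Lrg1 itself was at 288 to 478 CPM in LRG1 mice and 86.2 to 110 CPM in eGFP controls of week 7, and at 286 to 624 and 99.6 to 115 CPM at week 10, so every library fitted its label. Libraries held 45376227 to 67539937 counts, of which the 10 genes together made up 0.00777% to 0.0315%. Levels are given as CPM, counts scaled to a common library total with TMM factors (trimmed mean of M values), and within each group the values follow the replicate numbers 1 to 4.

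The label of the set was checked against genes that would mark other sources of keratin or uroplakin. Summed over the 4 genes Upk1a, Upk2, Upk3a and Upk3bl, other uroplakins of the bladder lining reached at most 0.175 CPM in LRG1 mice of week 7 and 0.388 CPM in eGFP controls, and at most 0.280 and 0.468 CPM at week 10. A list of 13 epithelial genes that contained Epcam and Cdh1, the epithelial adhesion genes, summed to at most 2.82 CPM in LRG1 mice and 4.59 CPM in eGFP controls of week 7, and at most 2.95 and 3.68 CPM at week 10. In the same order, 16 genes of the epididymis duct summed to at most 0.489, 0.295, 0.872 and 2.26 CPM. The 2.26 CPM was that of replicate 3 of the eGFP controls of week 10, where replicates 1, 2 and 4 were at 0.307, 0.386 and 0.337 CPM. The 10 mesothelial genes themselves summed to 213 to 311 CPM in LRG1 mice and 122 to 194 CPM in eGFP controls of week 7, and to 232 to 313 and 91.8 to 280 CPM at week 10. Of a further 24 mesothelial genes, 23 were tested, and the exception was Calb2, the calretinin gene, which had no counts. A list of 12 other keratins, mostly of stratified epithelium, summed to 10.4 to 18.5 CPM in LRG1 mice and 8.01 to 11.9 CPM in eGFP controls of week 7, and to 10.0 to 13.3 and 6.56 to 10.9 CPM at week 10. Of these, 3 were tested: Krt14 at 1.67 to 10.5 CPM, Krt80 at 3.64 to 6.10 CPM and Krt10 at 0.734 to 1.5 CPM over the 16 libraries. Krt14 and Krt80 thus reached the levels of Krt8 (1.51 to 6.84 CPM) and Krt18 (1.35 to 6.56 CPM), and the cells they came from were not tested.

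Of the eGFP controls of week 10, replicates 1 and 3 stood apart from replicates 2 and 4 in genes of other cell types. The mean log2 CPM of 8 leukocyte genes was 5.08, 5.04, 4.81 and 4.64 in LRG1 mice of week 10, against 6.63, 5.56, 6.66 and 5.88 in eGFP controls. For 8 adipocyte genes it was 10.04, 10.12, 10.14 and 10.02 in LRG1 mice, against 8.80, 9.91, 9.08 and 9.93 in eGFP controls. The leukocyte level of replicates 1 and 3 lay within the 6.51 to 6.84 of the eGFP controls of week 7, and replicates 2 and 4 were nearer the LRG1 mice in adipocyte genes. Replicate 3 also had the lowest total and the lowest TMM factor (0.847) of all 16 libraries, and the highest summed level of epididymis genes. Neither pair is marked by the labels as faulty. The main week 10 results of the members and of the other mesothelial genes are therefore given with all 4, without replicates 1 and 3, and without replicates 2 and 4. Single genes of other lists are not given in each of these ways. Both removals were chosen after seeing the data, and because the pairs also differ in the members, either removal moves the week 10 values of most members in a fixed direction and lowers the spread that the test estimates.

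Each member sits on an autosome. The 2 keratin genes Krt8 (chr15:101996698-102004482, minus strand of GRCm38) and Krt18 (chr15:102028180-102032027, plus strand) lie close together, while Krt19 is at chr11:100140810-100148665 (minus). Msln is at chr17:25748613-25754378 (minus), Muc16 at chr9:18495455-18674530 (minus), Upk3b at chr5:136038496-136046487 (plus) and Upk1b at chr16:38773184-38800328 (minus). Both Wt1 (chr2:105126529-105173616, plus) and Lrrn4 (chr2:132868305-132880891, minus) are on chromosome 2, and Bnc1 is at chr7:81966672-81992292 (minus). Exons of Krt8 overlap the opposite-strand transcript Gm36026 by 101 bases, and those of Bnc1 overlap the pseudogene 4833418N17Rik by 98 bases. Gm36026 had at most 6 counts and 4833418N17Rik at most 7 counts in a library. The processed copy Krt8-ps had at most 6 counts, but how reads with several matches were treated is not given in the sources used here, so the level of Krt8 is less certain than those of the others.

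Because members varied together across libraries, as described further on, the bases just upstream of their starts were compared. RefSeq windows were at hand for 6 of the 10 genes, namely Upk3b, Lrrn4, Bnc1, Muc16, Krt8 and Krt18. The 3 that held any searched motif are shown, as the 250 bases before the RefSeq start on the strand of the gene, GRCm38.p6. Capitals mark the matches of 4 motifs, searched on both strands: GGAATG of TEAD factors, GNGTGGGNG of WT1, the GC box GGGCGG and the TATA box TATAAA. Upk3b (chr5:136038246-136038495, plus) held a TEAD motif on the opposite strand, Lrrn4 (chr2:132880863-132881112, minus) a WT1 and a TEAD motif, and Bnc1 (chr7:81992300-81992549, minus) 5 GC boxes, 1 of them on the opposite strand.
Upk3b: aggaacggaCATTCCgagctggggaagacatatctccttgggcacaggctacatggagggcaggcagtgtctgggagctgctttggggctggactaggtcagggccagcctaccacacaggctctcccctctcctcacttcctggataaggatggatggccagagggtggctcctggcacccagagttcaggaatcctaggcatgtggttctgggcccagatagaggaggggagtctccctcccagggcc
Lrrn4: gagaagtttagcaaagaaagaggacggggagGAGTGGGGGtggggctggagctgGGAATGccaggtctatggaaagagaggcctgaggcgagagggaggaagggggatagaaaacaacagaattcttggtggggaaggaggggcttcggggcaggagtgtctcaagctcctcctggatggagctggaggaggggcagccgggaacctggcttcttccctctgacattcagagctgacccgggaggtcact
Bnc1: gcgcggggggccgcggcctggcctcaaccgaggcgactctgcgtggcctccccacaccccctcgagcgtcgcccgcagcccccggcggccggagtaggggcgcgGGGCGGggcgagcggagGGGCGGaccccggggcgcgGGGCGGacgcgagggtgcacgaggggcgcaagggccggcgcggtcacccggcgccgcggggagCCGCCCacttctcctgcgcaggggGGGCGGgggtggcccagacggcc

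The TEAD motif of Upk3b began 241 bases before the start, and in Lrrn4 the WT1 motif began 219 and the TEAD motif 196 bases before it. The GC boxes of Bnc1 began 146, 129, 110, 47 and 23 bases before the start, and 83.6% of that window was G or C, against a median of 52.4% over all windows. No match overlapped another. Of 32851 windows of this length in the annotation, 12.6% held the TEAD motif, 12.7% the WT1 motif, 32.7% a GC box and 12.4% a TATA box, so each motif was common. The windows of Muc16, Krt8 and Krt18 held none of the 4. A match is only a string of letters, and the 6 windows shared no motif.

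Per kilobase of exon, the uroplakins led the set. Averaged over 16 libraries, Upk3b was at 12.3 ± 3.98 and Upk1b at 12.3 ± 4.02 CPM per kilobase (SD), and their order was Upk3b over Upk1b in 7 of 16 libraries, so the pair was not ordered. Msln followed at 9.30 ± 3.39, below Upk1b in 16 of 16 libraries, then Lrrn4 at 6.98 ± 2.14 and Krt19 at 5.98 ± 2.26 CPM per kilobase. The partner keratins were lower, with Krt18 at 2.73 ± 0.97 and Krt8 at 2.12 ± 0.715 CPM per kilobase. Bnc1 (2.08 ± 0.678), Wt1 (2.07 ± 0.436) and Muc16 (2.04 ± 0.770) came last and could not be ordered among themselves or against Krt8, with 8 to 10 of 16 libraries in the order of the means for each pair of these 4. Muc16 had the highest mean CPM of the set yet was among the last per kilobase, since its exons span 26350 bases. The 10 levels per kilobase lay between percentiles 55.1 and 87.4 of the 20822 genes tested.

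**Figure D1:**
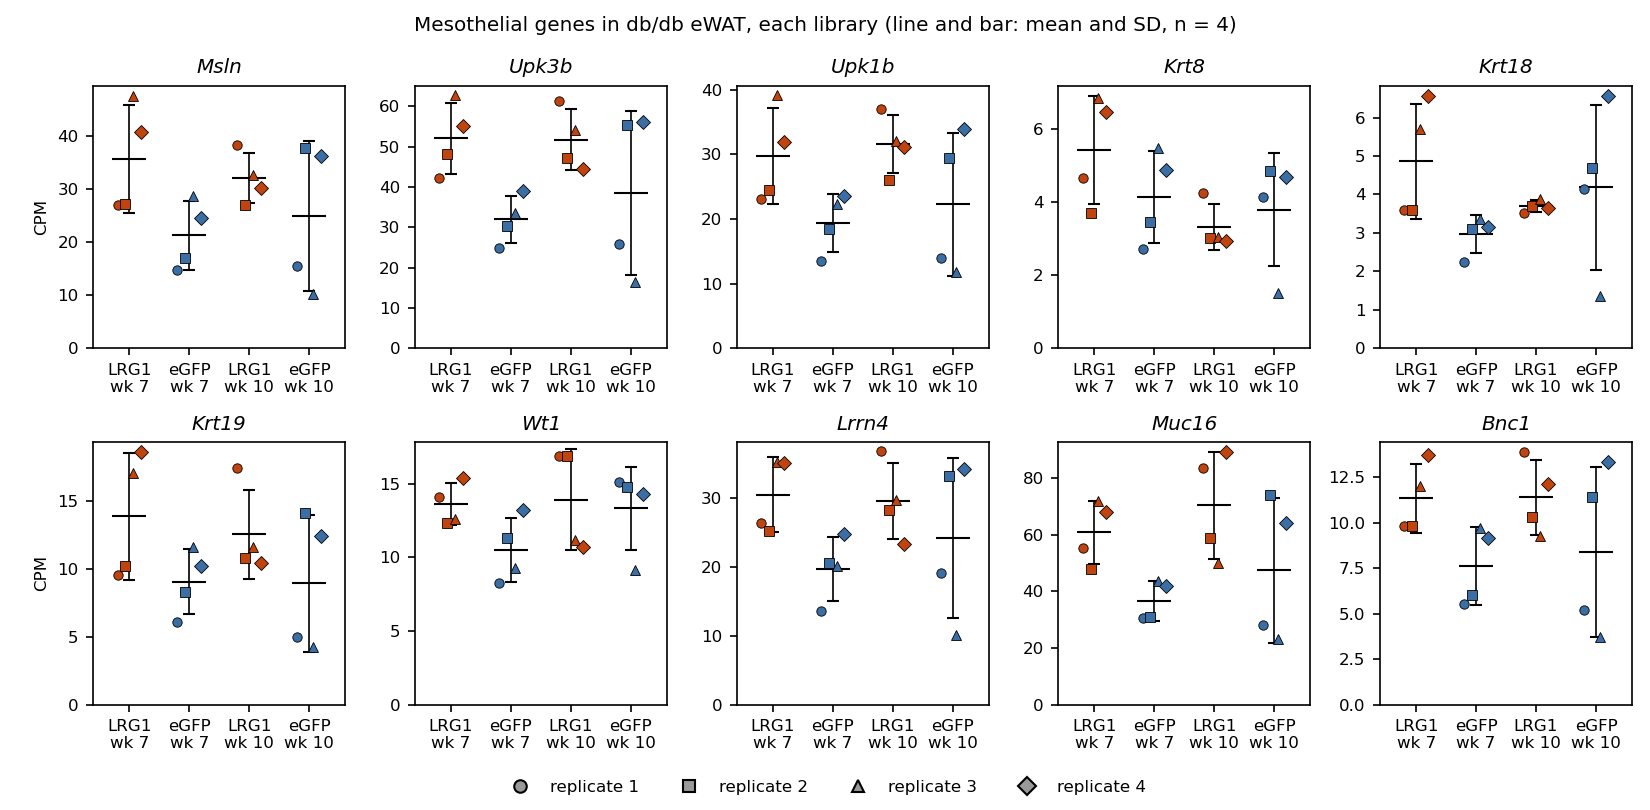
CPM (linear axis from 0) of each of the 10 mesothelial genes in each library, with LRG1 left of eGFP at each week, one symbol per replicate number, and the mean and SD of 4 libraries. At week 7 every LRG1 mean lies above its eGFP mean, and at week 10 the eGFP libraries of 9 of the 10 genes split into replicates 1 and 3 below replicates 2 and 4.

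The first comparison asked whether LRG1 overexpression went with a different mesothelial level at week 7. All 10 genes had a positive log2 fold change, where 50.5% of all genes did, from 0.37 for Wt1 to 0.75 for Msln, with a median of 0.62 beside a median of 0.01 over all 20822 genes tested. None was called by edgeR's quasi-likelihood test at a Benjamini-Hochberg adjusted p below 0.01, where 7.37% of all genes were called higher and 10.7% lower, and none had an adjusted p below 0.05. DESeq2 and limma-voom also called 0 of the 10 genes. An unadjusted edgeR p was below 0.05 in 6 of 10, all higher, where 21% of all genes had one and were higher and 42.3% had one in either direction. In 5 of 10 every LRG1 library was above every eGFP library, which held for 18.6% of all genes. The members varied together, as described further on, so these counts and those of later comparisons do not rest on 10 independent genes. In whole tissue, a different number of mesothelial cells and a different amount of RNA per cell cannot be told apart.

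At the cell surface, Msln encodes mesothelin, a protein tethered to the outer membrane by a lipid anchor, and Muc16 a very large membrane mucin to which mesothelin binds. Msln was at 27.1, 27.3, 47.6 and 40.8 CPM in LRG1 mice, against 14.7, 17.1, 28.8 and 24.5 CPM in eGFP controls. Muc16 was at 55.3, 48.0, 71.9 and 68.1 CPM in LRG1 mice, against 30.5, 30.8, 43.5 and 42.0 CPM in eGFP controls. The groups did not overlap for Muc16, while the highest eGFP library exceeded the lowest LRG1 libraries for Msln. The log2 fold change was 0.75 for Msln (SE 0.34, adjusted p = 0.106 in edgeR) and 0.73 for Muc16 (SE 0.31, adjusted p = 0.0825 in edgeR).

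Upk3b and Upk1b belong to the uroplakin family, named for the plaques of the bladder lining, and Upk1b is a tetraspanin. For Upk3b, LRG1 mice gave 42.2, 48.1, 62.7 and 55.1 CPM and eGFP controls 24.8, 30.4, 33.5 and 39.0 CPM. For Upk1b, LRG1 mice gave 23.1, 24.5, 39.2 and 32.0 CPM and eGFP controls 13.5, 18.5, 22.3 and 23.5 CPM. Upk3b was higher in every LRG1 library than in any eGFP library, and Upk1b overlapped only through the lowest LRG1 and the highest eGFP library. Upk3b had the smallest adjusted p of the set, 0.0753 in edgeR, at a log2 fold change of 0.70 (SE 0.29, 95% interval 0.09 to 1.32), and Upk1b had 0.61 (SE 0.29, adjusted p = 0.117 in edgeR).

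Among the keratins, which form the intermediate filaments of epithelia, Krt8 is a type II chain that pairs with the type I chains Krt18 and Krt19. Krt18 was at 3.6, 3.59, 5.69 and 6.56 CPM in LRG1 mice and 2.25, 3.11, 3.37 and 3.15 CPM in eGFP controls. Krt19 was at 9.55, 10.2, 17.1 and 18.6 CPM in LRG1 mice and 6.09, 8.26, 11.6 and 10.2 CPM in eGFP controls. Krt8 was at 4.66, 3.70, 6.84 and 6.44 CPM in LRG1 mice and 2.72, 3.46, 5.46 and 4.87 CPM in eGFP controls. Of the 3, the groups were apart for Krt18 alone. Log2 fold changes were 0.71 for Krt18 (SE 0.32), 0.61 for Krt19 (SE 0.35) and 0.39 for Krt8 (SE 0.30), with adjusted p of 0.103, 0.192 and 0.354 in edgeR.

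Wt1 and Bnc1 are the transcription factors of the set, a zinc finger protein of mesoderm-derived linings that is also made by progenitors of visceral fat, and basonuclin. Wt1 was at 14.1, 12.3, 12.6 and 15.4 CPM in LRG1 mice, against 8.28, 11.3, 9.28 and 13.2 CPM in eGFP controls. Bnc1 was at 9.82, 9.81, 12 and 13.7 CPM in LRG1 mice, against 5.54, 6.02, 9.71 and 9.16 CPM in eGFP controls. For Bnc1 the groups did not overlap, though the gap was narrow, and for Wt1 the highest eGFP library lay inside the LRG1 range. The log2 fold change was 0.37 for Wt1 (SE 0.19, adjusted p = 0.148 in edgeR) and 0.57 for Bnc1 (SE 0.31, adjusted p = 0.176 in edgeR).

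Lrrn4, a membrane protein with leucine-rich repeats, was at 26.3, 25.1, 35.2 and 35.0 CPM in LRG1 mice, against 13.5, 20.5, 20.1 and 24.7 CPM in eGFP controls. The highest eGFP library was just below the lowest LRG1 library. Its log2 fold change was 0.63 (SE 0.29, adjusted p = 0.111 in edgeR).

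How many members were called at week 7 depended on which other libraries entered the fit, since the spread was estimated over all 4 groups. With only the 8 libraries of week 7, edgeR called 2 of 10 higher, Upk3b (0.68, SE 0.14, adjusted p = 0.00168) and Muc16 (0.71, SE 0.15, adjusted p = 0.00183), where 13.1% of all genes were called higher. With replicates 1 and 3 of the eGFP controls of week 10 left out, edgeR called 5 of 10 higher at week 7, namely Msln, Upk3b, Krt18, Lrrn4 and Muc16, where again 13.1% of all genes were called higher. With replicates 2 and 4 left out in their place, it called 2 of 10 higher, Upk3b and Muc16, where 12.9% of all genes were. The fold changes themselves hardly moved in these fits, and leaving out either pair lowered the estimated spread. Genes of other cell types also moved at week 7 in the fit of all 16 libraries, where 7.37% of all genes were called higher and 10.7% lower. Of 8 leukocyte genes, 7 were called lower in LRG1 mice (summed level 401 to 566 CPM, against 1300 to 1650 CPM in eGFP controls). Of 8 adipocyte genes, 2 were called higher, Slc2a4 and Cidec (15500 to 19300 CPM, against 11600 to 12300 CPM). Of 8 endothelial genes, 6 were called higher in LRG1 mice by edgeR (489 to 651 CPM summed, against 271 to 361 CPM in eGFP controls). Of 8 genes of fibroblasts and progenitors, 2 were called higher, Cd55, a complement regulator (0.63, SE 0.10, adjusted p = 0.000245 in edgeR), and Dcn, the matrix proteoglycan decorin (0.48, SE 0.11, adjusted p = 0.004 in edgeR), while the summed level was 4490 to 4850 CPM in LRG1 mice and 4040 to 5210 CPM in eGFP controls. The part of these cell types in the mesothelial difference was not tested.

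**Figure D2:**
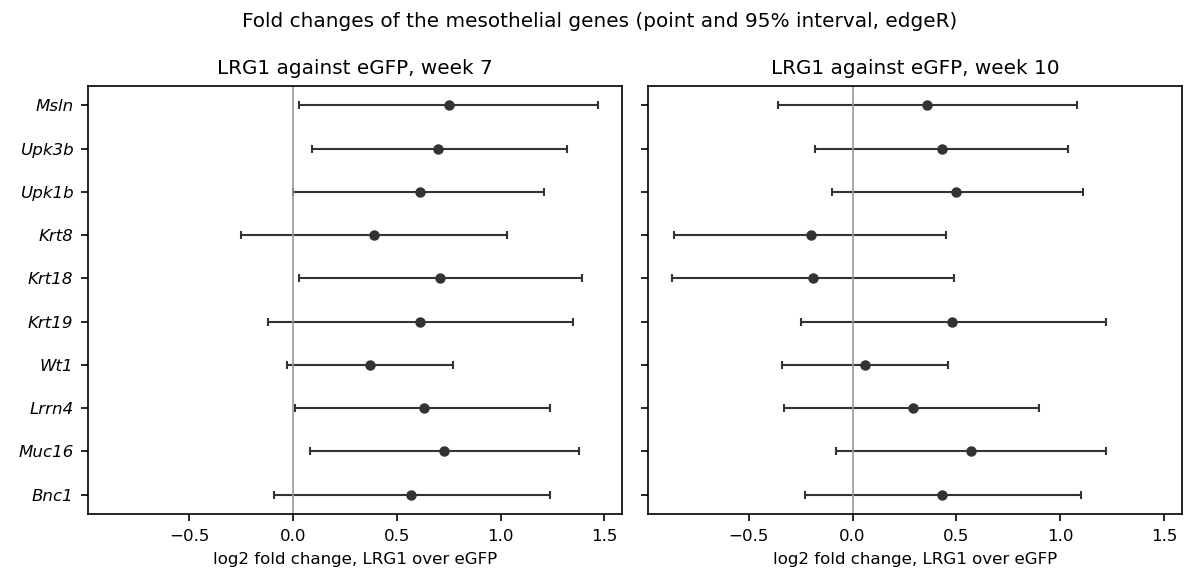
Log2 fold change of LRG1 over eGFP for the 10 genes at week 7 (left) and week 10 (right), with 95% intervals from edgeR. All 10 points lie right of 0 at week 7, from 0.37 to 0.75, and at week 10 they lie between -0.20 and 0.57 with every interval crossing 0.

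At week 10 the control libraries spread more widely. Log2 fold changes ran from -0.20 for Krt8 to 0.57 for Muc16, 8 of 10 were positive, where 49.5% of all genes were, and their median was 0.39. No gene was called by edgeR, where 3.66% of all genes were called higher and 5.24% lower. DESeq2 and limma-voom called none either, and none had an unadjusted edgeR p below 0.05, where 36.7% of all genes did. In no gene were the groups apart, while 9.96% of all genes had every LRG1 library above every eGFP library.

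Msln was at 38.4, 27.1, 32.6 and 30.3 CPM in LRG1 mice, against 15.6, 37.8, 10.2 and 36.3 CPM in eGFP controls. Muc16 was at 83.6, 58.9, 50.1 and 89.2 CPM in LRG1 mice, against 28.0, 74.1, 23.3 and 64.3 CPM in eGFP controls. Both coat genes were low in replicates 1 and 3 of the controls and, in replicates 2 and 4, within the range of the LRG1 mice. Upk3b, at 61.2, 47.2, 54.1 and 44.5 CPM in LRG1 mice, was at 25.8, 55.3, 16.4 and 56.2 CPM in eGFP controls. Upk1b, at 37.1, 26.0, 32.1 and 31.2 CPM in LRG1 mice, was at 14, 29.4, 11.8 and 33.9 CPM in eGFP controls. The uroplakins thus had the same split among the controls.

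Krt19 was at 17.4, 10.8, 11.6 and 10.4 CPM in LRG1 mice, against 4.98, 14.1, 4.27 and 12.4 CPM in eGFP controls. Krt18 was at 3.51, 3.69, 3.89 and 3.66 CPM in LRG1 mice, against 4.14, 4.68, 1.35 and 6.56 CPM in eGFP controls. Krt8 was at 4.25, 3.01, 3.05 and 2.94 CPM in LRG1 mice, against 4.12, 4.85, 1.51 and 4.67 CPM in eGFP controls. Krt18 and Krt8 were the members with a negative fold change (-0.19, SE 0.32, and -0.20, SE 0.31), and in both only replicate 3 of the controls lay below all LRG1 mice.

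Lrrn4 was at 36.7, 28.2, 29.7 and 23.3 CPM in LRG1 mice, against 19.1, 33.2, 10.1 and 34.2 CPM in eGFP controls. Bnc1 was at 13.9, 10.3, 9.24 and 12.1 CPM in LRG1 mice, against 5.20, 11.4, 3.70 and 13.3 CPM in eGFP controls. Wt1 was at 16.9, 16.9, 11.2 and 10.7 CPM in LRG1 mice, against 15.1, 14.8, 9.13 and 14.3 CPM in eGFP controls. Wt1 was the member without the split, as its level in replicate 1 was the highest of the controls. Its log2 fold change was 0.06 (SE 0.19, 95% interval -0.34 to 0.46).

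The week 10 fold changes turned on which pair of control libraries was kept. Replicates 1 and 3 lay below replicates 2 and 4 in 9 of the 10 genes. In Krt8 and Krt18, though, replicate 1 was near replicate 2 (4.12 against 4.85 CPM, and 4.14 against 4.68 CPM). Without replicates 1 and 3, Msln (-0.21), Upk3b (-0.11), Krt19 (-0.08), Wt1 (-0.07), Lrrn4 (-0.19) and Bnc1 (-0.12) were negative. Muc16 (0.02) was the 1 gene of 10 still positive, and the median was -0.11. None was called by edgeR, where 0.398% of all genes were called higher. Without replicates 2 and 4, all 10 were positive, from 0.19 for Wt1 to 1.46 for Muc16, with a median of 1.29, and edgeR called 7 of 10 higher, where 14.5% of all genes were. These 7 were Msln (1.31), Upk3b (1.29), Upk1b (1.29), Krt19 (1.43), Lrrn4 (1.00), Muc16 (1.46) and Bnc1 (1.34). The removed libraries were the highest of the group in these genes, so the removal fixed the direction, and the data do not say which pair stands for the controls. Single control libraries also moved these values: without replicate 3 the fold change was 0.10 for Msln, 0.18 for Upk3b and 0.03 for Lrrn4, and without replicate 4 it was 0.59 for Msln, 0.67 for Upk3b and 0.50 for Lrrn4. Replicates 1 and 3 of the controls also had the higher leukocyte and the lower adipocyte levels given above. Over the 8 leukocyte genes, all 8 were called lower in LRG1 mice at week 10, where 5.24% of all genes were. They were at 411 to 604 CPM summed, against 726 to 1940 CPM in eGFP controls. Without replicates 2 and 4 of the controls, 8 of 8 were called lower, where 14.5% of all genes were. Without replicates 1 and 3 it was 1 of 8, where only 0.338% of all genes were. The part of these other cell types in the mesothelial values was not tested.

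**Figure D3:**
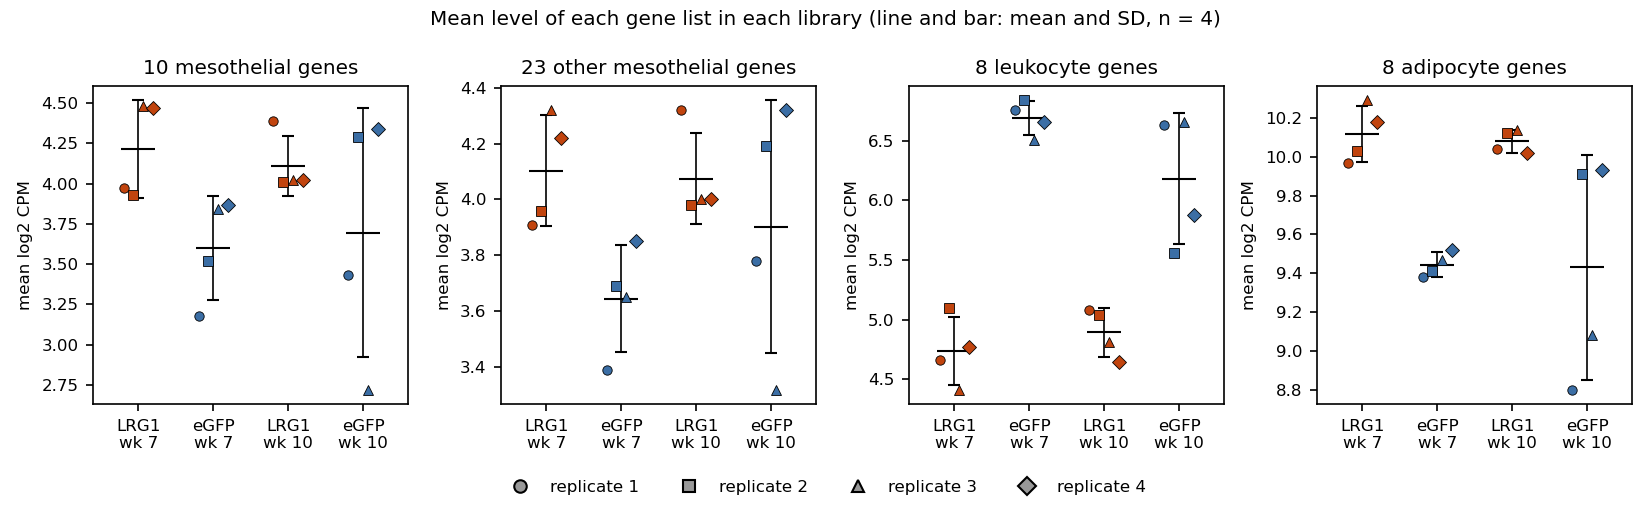
Mean log2 CPM of the 10 mesothelial genes, 23 other mesothelial genes, 8 leukocyte genes and 8 adipocyte genes in each library, with LRG1 left of eGFP at each week, one symbol per replicate number, and the mean and SD of 4 libraries. In eGFP controls of week 10, replicates 1 and 3 are low in the mesothelial (3.43 and 2.72) and adipocyte lists and high in the leukocyte list, and replicates 2 and 4 the reverse (mesothelial 4.29 and 4.34).

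Changes with age were set within each virus group. In LRG1 mice, week 10 against week 7 gave log2 fold changes from -0.71 for Krt8 to 0.21 for Muc16 with a median of -0.03. None was called, where 0.00961% of all genes were, and no gene had its weeks apart (3.64% of all genes had week 10 above week 7 and 3.41% below). Krt8 alone had an unadjusted edgeR p below 0.05, and it was lower at week 10, where 4.13% of all genes had one and were lower and 8.39% had one in either direction, at 3.31 ± 0.624 CPM in week 10 and 5.41 ± 1.48 CPM in week 7 (SD, n = 4 each, adjusted p = 0.543 in edgeR). In eGFP controls, week 10 against week 7 gave -0.11 for Krt8 to 0.50 for Krt18, with a median of 0.25, and edgeR called 0 of 10, where 2.14% of all genes were called. None had an unadjusted edgeR p below 0.05, where 19.8% of all genes did, and none had its weeks apart, where 4.08% of all genes had week 10 above week 7 and 6.89% below. DESeq2 and limma-voom called 0 of 10 in both groups of mice. Without replicates 1 and 3 of the eGFP controls of week 10, edgeR called 2 of 10 higher at week 10, where 4.86% of all genes were. The values followed the pair of control libraries kept. Upk3b was at 0.80 without replicates 1 and 3 of week 10 and -0.59 without replicates 2 and 4, and Muc16 at 0.91 and -0.52, where the libraries removed were the lowest or the highest of the week 10 controls for these genes.

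The LRG1 effect at week 10 minus that at week 7 was tested as an interaction in the same edgeR fit. All 10 estimates were negative, where 49.4% of all genes were positive, from -0.90 for Krt18 to -0.11 for Upk1b, with a median of -0.30. None was called, where 0.327% of all genes were, and the smallest adjusted p was 0.579, for Krt18 (SE 0.45, 95% interval -1.86 to 0.06). A smaller mesothelial difference at week 10 than at week 7 was therefore not shown. DESeq2 and limma-voom called none, and no member had an unadjusted edgeR p below 0.05, where 9.38% of all genes did. For Upk3b the estimate was -0.81 without replicates 1 and 3 of the eGFP controls of week 10 and 0.58 without replicates 2 and 4, and in neither case was a member called.

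Within groups, the members spread more than most genes. The median SD of log2 CPM over the members was 0.31 in LRG1 mice and 0.36 in eGFP controls of week 7, and 0.25 and 0.85 at week 10. The medians over 14169 genes at a mean of 1 CPM or more were 0.13, 0.13, 0.14 and 0.22 in the same order. The highest over the lowest control library of week 10 was 4.85 for Krt18, 3.70 for Msln and 3.42 for Upk3b, but 1.65 for Wt1. In LRG1 mice of week 10 these ratios were 1.11, 1.42, 1.38 and 1.58. Krt18 was thus the most even member in one group of week 10 and the most uneven in the other.

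Members varied together from library to library. Across the 16 libraries, the deviations from the group mean had a median Pearson r of 0.87 over 45 pairs of genes (0.38 to 0.97; median Spearman rho 0.82), and 1 component held 86.9% of their variance. The highest was 0.97, for Msln with Upk1b and for Upk3b with Lrrn4. Wt1 shared least, at 0.38 with Muc16 to 0.71 with Lrrn4, and without it the lowest r was 0.70. Without the libraries farthest from the group means, which were replicates 3 and 4 of the eGFP controls of week 10, the median r was 0.76 (0.13 to 0.96). The values share their libraries and scaling, and over 14159 other genes the r with the mean of the members ran from -0.76 to 0.77 (5th to 95th percentile), so strong correlations in either direction were frequent in these libraries.

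**Figure D4:**
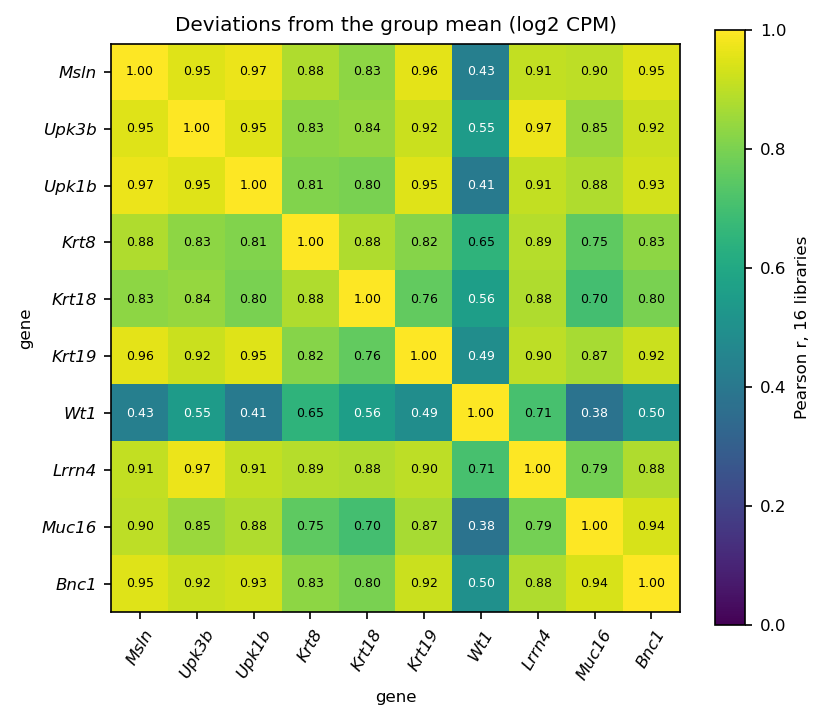
Pearson r between the 10 genes, computed over 16 libraries on log2 CPM after the group mean was taken off. Wt1 has the lowest values (0.38 to 0.71), and every pair without Wt1 is at 0.70 or above.

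The keratins were next set against the rest of the set inside each library, a reading that does not turn on the scaling between libraries. It was chosen after the values were seen, so it carries no test. The log2 level of Krt8 minus the mean of the other 9 genes was -2.55, -2.67, -2.66 and -2.72 in LRG1 mice of week 10, against -1.52, -2.23, -2.31 and -2.34 in eGFP controls. At week 7 it was -2.25 to -1.89 in LRG1 mice and -1.91 to -1.54 in eGFP controls. Krt8 was therefore lower beside its fellow genes in all 4 LRG1 libraries of week 10 than in any of the other 12 libraries, and none of the other 9 genes had such a gap. The gap was looked for among the 10 members only, so how common it is over all genes is not known. Krt8 had 58 to 421 counts in a library.

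As a plain ratio, Krt8 over Krt19 was 0.244, 0.279, 0.263 and 0.283 in LRG1 mice of week 10, against 0.828, 0.344, 0.354 and 0.377 in eGFP controls. At week 7 it was 0.347 to 0.488 in LRG1 mice and 0.419 to 0.478 in eGFP controls. Of the 45 pairs of members, 7 had a ratio that set LRG1 mice of week 10 apart from the other 12 libraries, and all 7 contained Krt8, against Msln, Upk3b, Upk1b, Krt19, Lrrn4, Muc16 and Bnc1. These 7 ratios share Krt8, so they restate its gap and add no separate observation. The pairs with Krt18 and Wt1 overlapped. Krt8 over Krt18, its partner chain, was 0.786 to 1.21 in LRG1 mice of week 10 and 0.712 to 1.12 in eGFP controls.

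**Figure D5:**
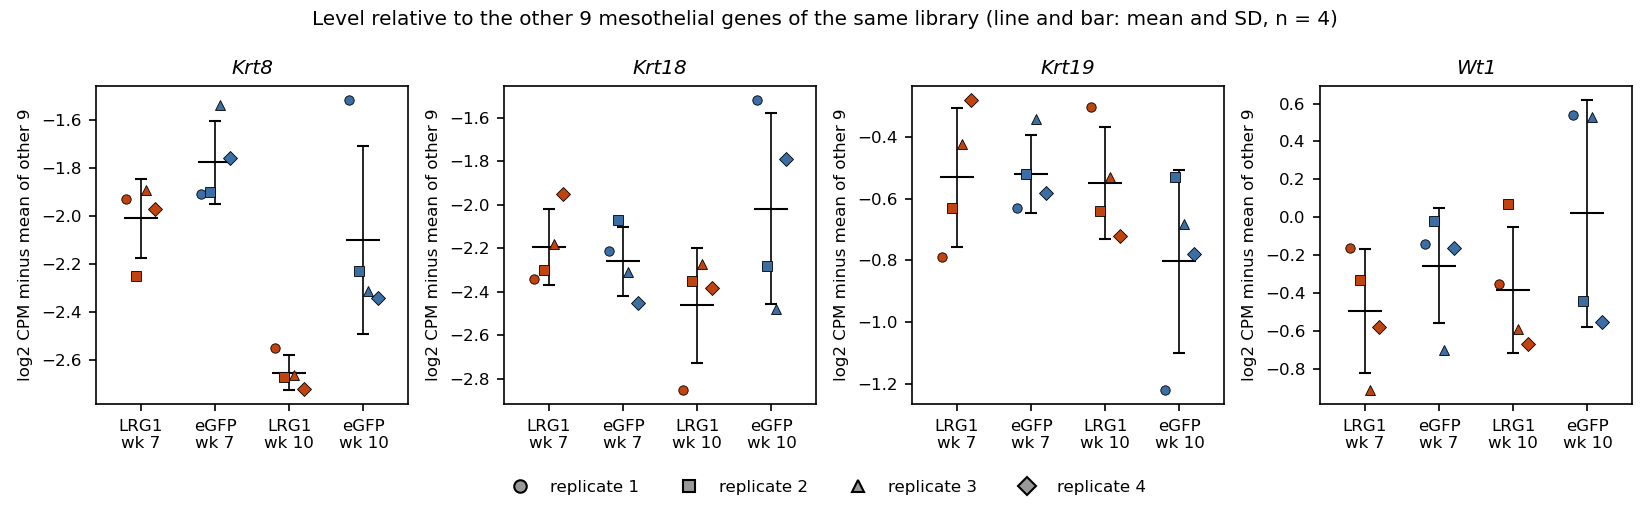
Log2 CPM of Krt8, Krt18, Krt19 and Wt1 minus the mean of the other 9 mesothelial genes of the same library, with LRG1 left of eGFP at each week, one symbol per replicate number, and the mean and SD of 4 libraries. Krt8 in LRG1 mice of week 10 lies at -2.72 to -2.55, below all other libraries, while for the other 3 genes these libraries overlap the rest.

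Of the other mesothelial genes, 23 tested of 24 listed, most had a positive fold change at week 7, and fewer had one at week 10. At week 7, 22 of 23 had a positive fold change, where 50.5% of all genes did, with a median of 0.57. Of these, 1 (Cldn15, a claudin of tight junctions) was called higher by edgeR (0.57, SE 0.14, adjusted p = 0.00732), where 7.37% of all genes were. The 1 gene with a negative fold change was Ezr, which encodes ezrin of the cell cortex (-0.46, SE 0.14, adjusted p = 0.0220 in edgeR). Next by adjusted p in edgeR were Efemp1, a matrix glycoprotein (0.71, SE 0.22, adjusted p = 0.0212), and Igfbp6, a binding protein of insulin-like growth factors (0.61, SE 0.19, adjusted p = 0.0217). Neither was called. At week 10, 16 of 23 were positive, where 49.5% of all genes were, with a median of 0.25, and none was called by edgeR. Nearest by adjusted p in edgeR were genes lower in LRG1 mice. These were Dmkn (-0.98, SE 0.28, adjusted p = 0.0219), Aldh1a2 (-0.51, SE 0.17, adjusted p = 0.0452) and Ezr (-0.34, SE 0.14, adjusted p = 0.0911). Next was Aldh1a1, which was higher (0.63, SE 0.27, adjusted p = 0.110 in edgeR). Without replicates 1 and 3 of the eGFP controls of week 10, edgeR called 11 of 23 higher at week 7, where 13.1% of all genes were, and 1, Ezr, lower, and at week 10 it called none, with 4 of 23 positive and a median of -0.16. Without replicates 2 and 4 it called 9 of 23 higher at week 7, where 12.9% of all genes were, and at week 10 it called 10 of 23 higher and 1 lower, with 17 of 23 positive and a median of 0.69, where 14.5% of all genes were called higher. The mean log2 CPM of this list was 3.78 and 3.32 in replicates 1 and 3 of the controls and 4.19 and 4.32 in replicates 2 and 4. Each removal thus moved its week 10 values in a fixed direction, and these counts are no separate support.

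The 10 genes most like the members over the 16 libraries, by the Pearson r of their deviations with the mean of the members, were Col4a6 (0.98), Gm13703 (0.97), Ildr2, Grtp1, Fmod, Pkhd1l1 and Cdh3 (0.96 each), and Col4a5, Krt7 and Ptpn13 (0.95 each). Col4a5 and Col4a6 encode chains of the basement membrane collagen, Cdh3 is P-cadherin, Fmod a proteoglycan that binds collagen, and Krt7 a further keratin of simple epithelia. Ildr2, Pkhd1l1 and Krt7 were already on the list of other mesothelial genes, of which 8 of 21 at 1 CPM or more (38.1%) reached an r of 0.9, against 0.374% of all 14159 genes. The median of the 21 was 0.82, and the lowest were Cldn15 (0.40), Pdpn (0.34), Aldh1a2 (0.03), Ezr (0.01) and Tbx18 (-0.20). Genes of other lists were also high, namely Ppl (0.95) and Evpl (0.90) of keratin anchors, Dpp4 (0.91) of progenitors and Lep (0.90) of adipocytes. Of the 10 genes most like the members, all 10 had a positive LRG1 fold change at both weeks, where 50.5% of all genes did at week 7 and 49.5% at week 10. All 10 were chosen for varying with the members, so this count does not rest on 10 independent genes. Grtp1 was called higher in LRG1 mice at week 7 (1.13, SE 0.26, adjusted p = 0.00438 in edgeR) and at week 10 (1.39, SE 0.27, adjusted p = 0.00305 in edgeR), and Gm13703, which is antisense to Gpr155 and cannot be told apart from it where counts ignore strand, at week 7 (1.09, SE 0.23, adjusted p = 0.00228 in edgeR). The remaining 8 were called at neither week, where 7.37% of all genes were called higher at week 7 and 3.66% at week 10. Grtp1, which carries a TBC domain as regulators of Rab proteins do, was at 30.9, 26.4, 35.9 and 33.1 CPM in LRG1 mice of week 7, against 11.6, 13.5, 16 and 16.5 CPM in eGFP controls. At week 10 it was at 41.0, 33.7, 32.4 and 36.2 CPM in LRG1 mice, against 9.64, 21.4, 6.17 and 17.4 CPM in eGFP controls. The groups were apart at both weeks, and without replicates 1 and 3 of the controls Grtp1 was still called at week 10 (0.89, SE 0.15, adjusted p = 0.00643 in edgeR).

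Genes that work beside the members were read from lists of the same kind, and 7.37% of all genes were called higher at week 7. Of 14 genes of junctions and keratin anchors, 1 was called higher at week 7, Tjp1, the scaffold of tight junctions (0.82, SE 0.21, adjusted p = 0.00826 in edgeR), and 11 of 14 were positive. Of 9 tested genes of retinoic acid signalling, Rxra, a nuclear receptor, was called higher at week 7 (0.42, SE 0.09, adjusted p = 0.00196 in edgeR). None of 5 tested targets of Wt1 was called, the nearest being Areg, an epidermal growth factor receptor ligand (-1.48, SE 0.43, adjusted p = 0.0150 in edgeR), and Podxl, a sialomucin (0.72, SE 0.22, adjusted p = 0.0186 in edgeR). Of 10 genes of mesenchymal transition, 2 were called higher at week 7, the transcription factor Zeb1 (0.51, SE 0.10, adjusted p = 0.00153 in edgeR) and Cdh2, N-cadherin (0.80, SE 0.19, adjusted p = 0.00453 in edgeR). Without replicates 1 and 3 of the eGFP controls of week 10, the week 7 calls of edgeR grew to 5 junction genes higher (Tjp1, Pkp2, Jup, F11r and Ppl), where 13.1% of all genes were, and 1 lower (Pkp3), to 2 retinoic acid genes higher (Rxra and Rarb), and among the Wt1 targets to Podxl and Gas1 higher and Areg lower. At week 10 none of the genes in these 4 lists was called with all libraries or without replicates 1 and 3. Without replicates 2 and 4, 7 of 14 junction genes, 2 of 9 retinoic acid genes, 2 of 5 Wt1 targets and 3 of 10 transition genes were called higher at week 10, where 14.5% of all genes were. The mean log2 CPM of the junction list was 1.49 and 1.61 in replicates 1 and 3 of the controls and 2.42 and 2.48 in replicates 2 and 4. For that list either removal moved the week 10 values in a fixed direction. Zeb1, Rxra and Tjp1 are expressed by many cell types of fat, and the levels of other cell types moved at the same week.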

How the data were processed

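Whole eWAT of 16 samples from db/db mice was analysed, in 4 groups of 4. The authors trimmed reads with Cutadapt, aligned them to mm10 (GRCm38) with STAR and deposited raw featureCounts counts per Ensembl gene, with exon lengths. The versions, the strand setting and the treatment of multi-mapping reads are not given in the sources used here. All 16 count columns matched a label, 0 columns were left unused, and no columns of the authors' own comparisons were present. Symbols were found for 55394 of 55573 genes, and 55267 had the position of GENCODE vM21. The labels number the samples of a group but do not name animals, so p-values measure the spread between these samples, which may be technical.

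All 16 libraries entered a single quasi-likelihood model with 1 coefficient for each group (edgeR 4.0.16 under R 4.3.3, TMM factors). The 20822 genes that filterByExpr kept shared the Benjamini-Hochberg adjustment. Calls were made at an adjusted p below 0.01. Biological variation had a common coefficient of 0.203. Standard errors were derived from the F statistic, and log2 CPM used a prior count of 2. Libraries of 1 group correlated at 0.965 to 0.987 and none was a duplicate. The fit was tested on simulated data.

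The members and all lists were chosen with earlier results of these data known. All 10 members are named. Each other list contributes up to 4 names per comparison, taken by lowest adjusted p, plus any gene needed to account for a count of 5 or fewer. The 10 genes most like the members at a mean of 1 CPM or more are named too. Grtp1, Cd5l, Vsig4 and Tie1 were picked for values in each library or without the 2 controls after their levels were seen. The alternatives were DESeq2 1.42.0 (the tool of the study), limma-voom (limma 3.58.1), the 8 libraries compared alone, RLE, upper quartile and library size scaling, no filter and a filter of 1 CPM in 4 libraries, a replicate block, a threshold of 0.05, and each library left out. Leaving out replicates 1 and 3, or replicates 2 and 4, of the eGFP controls of week 10 was added after seeing the data.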

Additional observations from a re-analysis of the deposited data

Results flagged for a closer look

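In each of 40 combinations of a gene and a group, the gap between the highest or lowest library and its nearest neighbour was divided by the range of the group and set against Dixon's critical value for 4 libraries at the 95% level. Chance passes it in about 1 of 20 groups, and 2 of 40 passed here. Krt8 in LRG1 mice of week 10 had a ratio of 0.911, since replicate 1 was at 4.25 CPM and replicates 2 to 4 at 3.01, 3.05 and 2.94 CPM. Wt1 in eGFP controls of week 10 had a ratio of 0.873, since replicate 3 was at 9.13 CPM and replicates 1, 2 and 4 at 15.1, 14.8 and 14.3 CPM. That library was also the lowest of its group in the other 9 genes.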

How the results depend on the processing

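With 4 libraries a group, members that spread as widely as the eGFP controls of week 10 were tested with low precision. No member was called by edgeR, DESeq2 or limma-voom in any comparison, or after leaving out any 1 library, and the count moved in 5 cases. At week 7 it was 2 with only the 8 libraries compared, where 13.1% of all genes were called higher. It was 5 without replicates 1 and 3 of the eGFP controls of week 10, where 13.1% were, and 2 without replicates 2 and 4, where 12.9% were. At week 10 it was 7 without replicates 2 and 4, where 14.5% of all genes were called higher. For week 10 against week 7 in eGFP controls it was 2 without replicates 1 and 3, both higher, where 4.86% of all genes were. The pairs differed in the members themselves, so at week 10 and between the weeks each removal fixed the direction. Leaving out replicates 1 and 3 turned the week 10 fold changes of Msln (-0.21), Upk3b (-0.11), Krt19 (-0.08), Wt1 (-0.07), Lrrn4 (-0.19) and Bnc1 (-0.12), and in eGFP controls the change with age of Krt8 (0.20) and Krt19 (0.55). Leaving out replicates 2 and 4 turned Krt8 (0.20) and Krt18 (0.39) at week 10. It also turned the change with age in eGFP controls for Msln (-0.71), Upk3b (-0.59), Upk1b (-0.59), Krt18 (-0.08), Lrrn4 (-0.42), Muc16 (-0.52) and Bnc1 (-0.76), and the interaction for Msln (0.56), Upk3b (0.58), Upk1b (0.68), Krt19 (0.82), Lrrn4 (0.38), Muc16 (0.73) and Bnc1 (0.77). Krt19 in eGFP controls was also positive with 8 libraries (0.02) and upper quartile scaling (0.01). Upk3b in LRG1 mice was positive with library size scaling (0.04) and the replicate block (0.02). The interaction was positive for Krt19 with limma-voom (0.02) and for Upk1b with library size scaling (0.02). Their causes were not tested.

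Leaving out 1 library at a time, no week 7 fold change of a member turned. At week 10 Krt18 ran from -0.47 to 0.11 and Wt1 from -0.09 to 0.16. For the change with age in eGFP controls, Msln ran from -0.03 to 0.49, Upk1b from -0.08 to 0.40, Krt8 from -0.27 to 0.14, Krt19 from -0.32 to 0.21 and Bnc1 from -0.16 to 0.39. In LRG1 mice, Msln ran from -0.27 to 0.02, Upk3b from -0.10 to 0.10, Upk1b from -0.01 to 0.25, Krt19 from -0.35 to 0.03, Wt1 from -0.08 to 0.14, Lrrn4 from -0.17 to 0.05 and Bnc1 from -0.11 to 0.11. The interaction ran from -0.31 to 0.17 for Upk1b, -0.35 to 0.18 for Krt19, -0.38 to 0.14 for Muc16 and -0.38 to 0.17 for Bnc1. In all, 757 of 800 such fold changes and 542 of 590 under the other alternatives kept their sign and side of the threshold.

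Scaling by library size alone put the median fold change of all genes at -0.15 at week 7, against 0.01 with TMM. The members then had 0.22 to 0.57, and 8.57% of calls were higher, against 40.9% with TMM. Upper quartile scaling gave 50.5%. At week 10 library size scaling gave 22% against 41.1%. Calls over all genes at week 7 were 1534 higher and 2221 lower, against 2400 higher with DESeq2, 2581 higher with 8 libraries, 2858 higher without replicates 1 and 3 of the controls, 2825 higher without replicates 2 and 4, and 341 higher and 3636 lower with library size scaling. At week 10 they were 762 and 1092, against 1587 and 1978 with DESeq2, 639 lower with limma-voom, 2 and 10 with 8 libraries, 87 and 74 without replicates 1 and 3, 3187 and 3178 without replicates 2 and 4, 320 higher with library size scaling and 642 lower with the replicate block. Between weeks in eGFP controls, 131 were higher and 315 lower, against 462 and 617 with DESeq2, 24 and 85 with 8 libraries, 476 lower with library size scaling, 56 and 202 with the replicate block, 1063 and 1146 without replicates 1 and 3, and 881 and 835 without replicates 2 and 4. For the interaction, 64 were higher and 4 lower, against 234 and 40 with DESeq2, 33 and 2 with the replicate block, 284 and 182 without replicates 1 and 3, and 383 and 336 without replicates 2 and 4. At a threshold of 0.05, 3113 and 3442 were called at week 7, and 2146 and 2615 at week 10. The replicate numbers did not pair the libraries: deviations of the 24 same-numbered pairs had a median r of -0.0152 (-0.196 to 0.138), and 4 of 16 libraries correlated best with their own number.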

Other observations

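Macrophages of the peritoneal cavity, which touch the mesothelial surface, were read from a list of 7 genes. Gata6, the transcription factor that defines the resident cells, was at 8.02 to 18.9 CPM over the 16 libraries and Timd4, a phosphatidylserine receptor of resident macrophages, at 2.07 to 7.54 CPM. Neither was called in any comparison by edgeR. Deviations of Gata6 had a Pearson r of 0.82 with the mean of the mesothelial members. For the rest of the list it was 0.81 (Alox15), 0.71 (Garnl3), 0.62 (Timd4), 0.29 (F5), -0.43 (Vsig4) and -0.58 (Cd5l). The cells that Gata6 came from were not tested, so its level cannot be read as one of macrophages. Vsig4, a complement receptor, and Cd5l, a secreted scavenger protein of macrophages, were called lower in LRG1 mice at week 10 (log2 fold change -1.79, SE 0.28, adjusted p = 0.00137, and -4.40, SE 0.87, adjusted p = 0.00351, in edgeR). Cd5l was at 10.2, 6.75, 2.29 and 5.66 CPM in LRG1 mice of week 10, against 240, 7.47, 261 and 18.8 CPM in eGFP controls, so replicates 1 and 3 of the controls carried it. Vsig4 was at 12.3, 11.6, 9.51 and 10.3 CPM in LRG1 mice, against 44.7, 17.2, 50.4 and 38.5 CPM in eGFP controls, and its groups did not overlap. Without replicates 1 and 3, a removal that takes out the highest values of both genes, neither was called at week 10 (Cd5l -1.08, SE 0.46, adjusted p = 0.211, and Vsig4 -1.35, SE 0.27, adjusted p = 0.0138, in edgeR). Between the weeks in eGFP controls, both were called higher at week 10 (1.70, SE 0.27, adjusted p = 0.00179 for Vsig4, and 4.59, SE 0.88, adjusted p = 0.00566 for Cd5l, in edgeR), where 2.14% of all genes were called in either direction. Cd5l was at 3.8 to 7.39 CPM in eGFP controls of week 7, so replicates 1 and 3 of week 10 held most of its rise. Without these 2 replicates, 1 of the 7 genes was called higher between the weeks, where 4.86% of all genes were. At week 7 none of the 7 genes was called in LRG1 mice against eGFP controls.

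Endothelial genes were read from a list of 8. At week 7, 6 of 8 were called higher in LRG1 mice by edgeR, where 7.37% of all genes were, among them Emcn, an endothelial sialomucin (0.87, SE 0.15, adjusted p = 0.000711), Tek, the angiopoietin receptor (0.88, SE 0.19, adjusted p = 0.00237), and Tie1, its relative (0.99, SE 0.23, adjusted p = 0.00437), and at week 10, 1 of 8 was, Tie1 (0.98, SE 0.23, adjusted p = 0.00802), where 3.66% of all genes were. Without replicates 1 and 3 of the controls none was called at week 10, where 0.398% of all genes were called higher. Without replicates 2 and 4, 7 of 8 were, where 14.5% of all genes were. The mean log2 CPM of the list was 4.37 and 4.57 in replicates 1 and 3 of the controls and 5.48 and 5.35 in replicates 2 and 4. Either removal thus moved the week 10 values in a fixed direction. The summed level was 489 to 651 CPM in LRG1 mice and 271 to 361 CPM in eGFP controls of week 7, and 505 to 783 and 233 to 519 CPM at week 10.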
